A study of Macaca mulatta with 24 samples.

Results

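The genes examined here make, recover, break down and sense acetylcholine in the nucleus accumbens (NAcc) core of rhesus macaques. They were the 10 genes CHAT, SLC5A7, ACHE, CHRM1, CHRM2, CHRM3, CHRM4, CHRNA4, CHRNB2 and CHRNA7, taken by their symbols from a table of 17208 genes, and all 10 were found. RNA-Seq of polyA-selected libraries had been run once for each of 24 animals, 8 controls, 8 LD* and 8 HD* animals. All were adult male, genetically unrelated animals. The drinkers were first induced to take daily ethanol doses rising from 0.5 to 1.5 g/kg, and then had open access to 4% (w/v) ethanol and to water for 22 h a day over 12 months. The controls went through the same procedures with water on both spouts and received a 10% maltose dextrin solution to match calories. Tissue was taken after the open-access period, without an imposed abstinence.

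LD* animals were low or binge drinkers, which the sample descriptions do not separate, and took 0.47 to 2.07 g/kg ethanol a day. HD* animals joined 4 heavy drinkers (HD, 2.74 to 3.09 g/kg) and 4 very heavy drinkers (VHD, 3.09 to 3.78 g/kg). The animals set their own intake, so a drinking group was not assigned. The tissue was a dissection of about 1 cubic millimetre of bulk core. Levels are given in TPM (a unit of transcript abundance), a share of each animal's total that takes gene length into account, and the number of reads behind them is unknown. The labels give 4 cohorts. Controls came from cohorts 5 (3), 7a (2) and 7b (3), LD* animals from cohorts 4 (2), 7a (3) and 7b (3), and HD* animals from cohorts 5 (4) and 7a (4).

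As background, acetylcholine in the striatum comes mainly from large, sparse interneurons that fire tonically and pause at salient cues. CHAT (choline acetyltransferase) joins choline and acetyl-CoA, SLC5A7 is the high-affinity transporter that returns choline to the terminal, and ACHE (acetylcholinesterase) hydrolyses the transmitter. CHRM1 and CHRM3 encode muscarinic receptors that couple to Gq, whereas CHRM2 and CHRM4 encode receptors that couple to Gi/o. In the striatum, CHRM1 is carried by medium spiny neurons of both output pathways, CHRM4 mainly by those with dopamine D1 receptors, and CHRM2 includes the autoreceptor of the cholinergic interneurons. CHRNA4 and CHRNB2 encode the subunits of the main high-affinity nicotinic receptor, which sits largely on dopamine terminals, and CHRNA7 encodes the subunit of the homomeric alpha7 receptor.

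Some samples differed in cell markers before any comparison of groups. Animals are numbered within their group. The mean correlation of an animal's log2(TPM + 1) with those of the other animals was 0.923 in Control 6 and between 0.953 and 0.976 in the others. NGFR, the low-affinity neurotrophin receptor that marks basal forebrain cholinergic neurons in the adult brain, stood at 185 TPM in Control 6, 77.1 TPM in Control 8, 26.5 TPM in HD* 4 and 8.91 TPM in Control 5, and at no more than 4.07 TPM in the other 20 animals. The summed level of 11 medium spiny neuron markers (among them PPP1R1B, DRD1, DRD2 and PENK) was 774 TPM in Control 6 and ran from 2732 to 12060 TPM in the other animals, so the labelled tissue carried striatal markers in every sample, with Control 6 well below the rest. SLC17A7, the vesicular glutamate transporter of cortical pyramidal neurons, ranged from 119 to 722 TPM in 6 animals (Control 2, Control 7, LD* 2, LD* 4, LD* 6 and HD* 7) and lay at 84.9 TPM or below in the other 18. These values are given again below wherever a result rested on these animals.

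The 10 genes spanned a wide range of levels (TPM is a value per length, so genes can be compared, but the gene lengths used are unknown). Mean levels over the 24 animals were 165 TPM for CHRM1, 121 TPM for ACHE, 70.1 TPM for CHRM4 and 36.9 TPM for CHRNB2. The other 6 were much lower, at 9.44 TPM for SLC5A7, 7.66 TPM for CHAT, 5.99 TPM for CHRM3, 5.04 TPM for CHRNA4, 4.24 TPM for CHRNA7 and 1.97 TPM for CHRM2. Thus the esterase and 2 of the muscarinic receptors were abundant, while the enzyme and the transporter of the presynaptic cell were not. All 10 passed the filter of a mean of 1 TPM used for testing. CHRM1 had more transcript than 93.3% of the genes in the table and CHRM2 more than 25.8%.

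**Figure D1:**
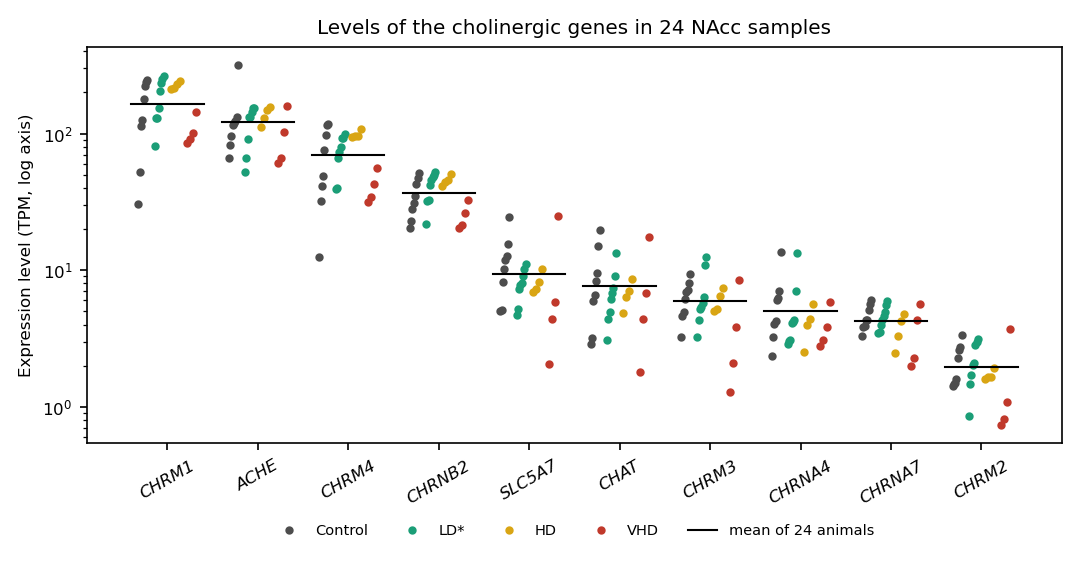
Level of each gene in TPM (log axis) in 24 animals, ordered by the mean, with points for animals coloured by drinking category and a black line at the mean of all animals. CHRM1 (165 TPM on average) and ACHE (121 TPM) lead, CHRM2 (1.97 TPM) is last, and CHAT, CHRM3, CHRNA4 and CHRNA7 overlap with their neighbours.

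Some neighbours in this order did not separate within animals. CHAT exceeded CHRM3 in 15 of 24 animals and CHRNA4 exceeded CHRNA7 in 14 of 24, so their order varied between animals. Levels of different genes were not tested against each other. CHRM3 exceeded CHRNA4 in 19, and SLC5A7 exceeded CHAT in 21. ACHE was above CHRM4 and CHRNA7 above CHRM2 in all 24 animals, CHRM1 was above ACHE in 21, and CHRM4 above CHRNB2 and CHRNB2 above SLC5A7 in 23 each.

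The spread between animals was smallest for CHRNA7, with a coefficient of variation (SD as a percentage of the mean) of 26.4%, and for CHRNB2 with 29.9%. It was largest for CHAT (59.8%), SLC5A7 (59.7%) and CHRNA4 (58.4%). The highest CHAT level, 19.8 TPM, was 10.9 times the lowest, 1.81 TPM.

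The first question was whether a year of heavy or lighter drinking went with a change of these genes. In HD* animals against controls, LD* animals against controls and HD* against LD* animals, 0 of 10 members passed an adjusted p of 0.05 and also 0 of 10 had an unadjusted p under 0.05 (limma on log2(TPM + 1), n = 8 per group). Of all 13637 genes tested, 0.0% passed the adjusted threshold in each comparison, and 5.68%, 2.84% and 1.08% had an unadjusted p under 0.05. Fold changes below are differences of mean log2(TPM + 1), which understate the change of genes with low levels. In bulk tissue, fewer cells of a type and less RNA per cell cannot be told apart.

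Among the presynaptic genes, CHAT ranged from 2.88 to 19.8 TPM in controls (median 7.44), from 3.06 to 13.3 TPM in LD* animals (median 6.46) and from 1.81 to 17.5 TPM in HD* animals (median 6.62). The 3 groups overlapped almost fully, and the top animals were Control 6, HD* 4 and Control 8, which also carried the most NGFR. The CHAT difference between HD* animals and controls was −0.24 on the log2 scale (SE 0.34, limma adjusted p = 0.794). Without the 4 animals with at least 5 TPM of NGFR this difference was 0.07, and with array weights 0.15, so its sign rested on these animals.

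SLC5A7 ranged from 5.05 to 24.7 TPM in controls (median 11.0), from 4.66 to 11.1 TPM in LD* animals (median 7.97) and from 2.07 to 25.0 TPM in HD* animals (median 7.06). HD* 4 and Control 6 again stood at the top and HD* 8 at the bottom. The choline transporter had the lowest estimates of all members, −0.48 in HD* animals (SE 0.32, limma adjusted p = 0.706) and −0.39 in LD* animals (SE 0.32, limma adjusted p = 1.00) against controls. Without the 4 animals with at least 5 TPM of NGFR these estimates were −0.35 and −0.02.

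ACHE ranged from 66.0 to 317 TPM in controls (median 117), from 52.2 to 154 TPM in LD* animals (median 132) and from 60.6 to 160 TPM in HD* animals (median 121). The value of 317 TPM belonged to Control 6, and the next control stood at 133 TPM. ACHE differed from controls by −0.10 in HD* (SE 0.28, limma adjusted p = 0.899) and by −0.13 in LD* animals (SE 0.28, limma adjusted p = 1.00) on the log2 scale. Both differences were positive (0.06 and 0.10) without the 4 animals with at least 5 TPM of NGFR.

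Among the receptors coupled to Gq, CHRM1 ranged from 30.3 to 245 TPM in controls (median 152), from 80.5 to 262 TPM in LD* animals (median 180) and from 85.2 to 243 TPM in HD* animals (median 177). The lowest values were those of Control 6 and Control 8, at 30.3 and 51.9 TPM. CHRM1 differed from controls by 0.30 in HD* animals (SE 0.37, limma adjusted p = 0.766), and by −0.22 without the 4 animals with at least 5 TPM of NGFR. In LD* animals the difference was 0.45 (SE 0.37, limma adjusted p = 1.00), and −0.19 without those animals.

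CHRM3, far less abundant than CHRM1 in TPM, ranged from 3.25 to 9.38 TPM in controls (median 6.57), from 3.26 to 12.4 TPM in LD* animals (median 5.56) and from 1.27 to 8.42 TPM in HD* animals (median 5.11). HD* 8 was the lowest animal and LD* 4, with the most SLC17A7, the highest. The log2 difference between HD* animals and controls was −0.38 (SE 0.27, limma adjusted p = 0.706). That difference was −0.70 without the 4 animals with at least 5 TPM of NGFR (unadjusted p = 0.0315, adjusted p = 0.302). In that fit 2235 of all 13637 genes had an unadjusted p under 0.05, 2127 of them lower in HD* animals.

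Among the receptors coupled to Gi/o, CHRM4 ranged from 12.5 to 117 TPM in controls (median 62.5), from 39.1 to 99.2 TPM in LD* animals (median 76.6) and from 31.6 to 108 TPM in HD* animals (median 75.0). Control 6 was again the lowest animal. Against controls CHRM4 differed by 0.19 in HD* (SE 0.37, limma adjusted p = 0.851) and by 0.32 in LD* animals (SE 0.37, limma adjusted p = 1.00) on the log2 scale. Without the 4 animals with at least 5 TPM of NGFR these differences were −0.33 and −0.28.

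CHRM2 ranged from 1.42 to 3.36 TPM in controls (median 1.93), from 0.856 to 3.14 TPM in LD* animals (median 2.05) and from 0.731 to 3.74 TPM in HD* animals (median 1.62). The groups overlapped, with the highest animal, HD* 4, and the lowest, HD* 8, both in the HD* group. The log2 difference was −0.27 in HD* animals against controls (SE 0.19, limma adjusted p = 0.706).

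Of the nicotinic subunits, CHRNA4 ranged from 2.36 to 13.7 TPM in controls (median 5.13), from 2.88 to 13.3 TPM in LD* animals (median 4.15) and from 2.54 to 5.82 TPM in HD* animals (median 3.93). The high values were those of Control 6 and LD* 4, and the highest HD* animal was HD* 4, at 5.82 TPM. The difference between HD* animals and controls was −0.35 on the log2 scale (SE 0.27, limma adjusted p = 0.706). Its partner CHRNB2 ranged from 20.5 to 51.8 TPM in controls (median 32.8), from 21.8 to 51.9 TPM in LD* animals (median 43.6) and from 20.4 to 50.5 TPM in HD* animals (median 36.9). These ranges were nearly the same, and the log2 difference between HD* animals and controls was 0.01 (SE 0.22, limma adjusted p = 0.990).

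CHRNA7 ranged from 3.31 to 6.09 TPM in controls (median 4.32), from 3.46 to 5.91 TPM in LD* animals (median 4.48) and from 1.98 to 5.61 TPM in HD* animals (median 3.79). HD* 8, HD* 6 and HD* 2 lay below every control and every LD* animal. This subunit had the smallest unadjusted p of the members, 0.0678 for HD* animals against controls (log2 difference −0.30, SE 0.16, limma adjusted p = 0.706) and 0.0727 for HD* against LD* animals (−0.30, SE 0.16, limma adjusted p = 0.937). Without the 4 animals with at least 5 TPM of NGFR these differences were −0.39 (unadjusted p = 0.0335, limma adjusted p = 0.302) and −0.38 (unadjusted p = 0.0206, limma adjusted p = 0.664). In those fits 2 of 10 members had an unadjusted p under 0.05 in each comparison. Of all 13637 genes, 2235 did so in HD* animals against controls and 773 in HD* against LD* animals.

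**Figure D2:**
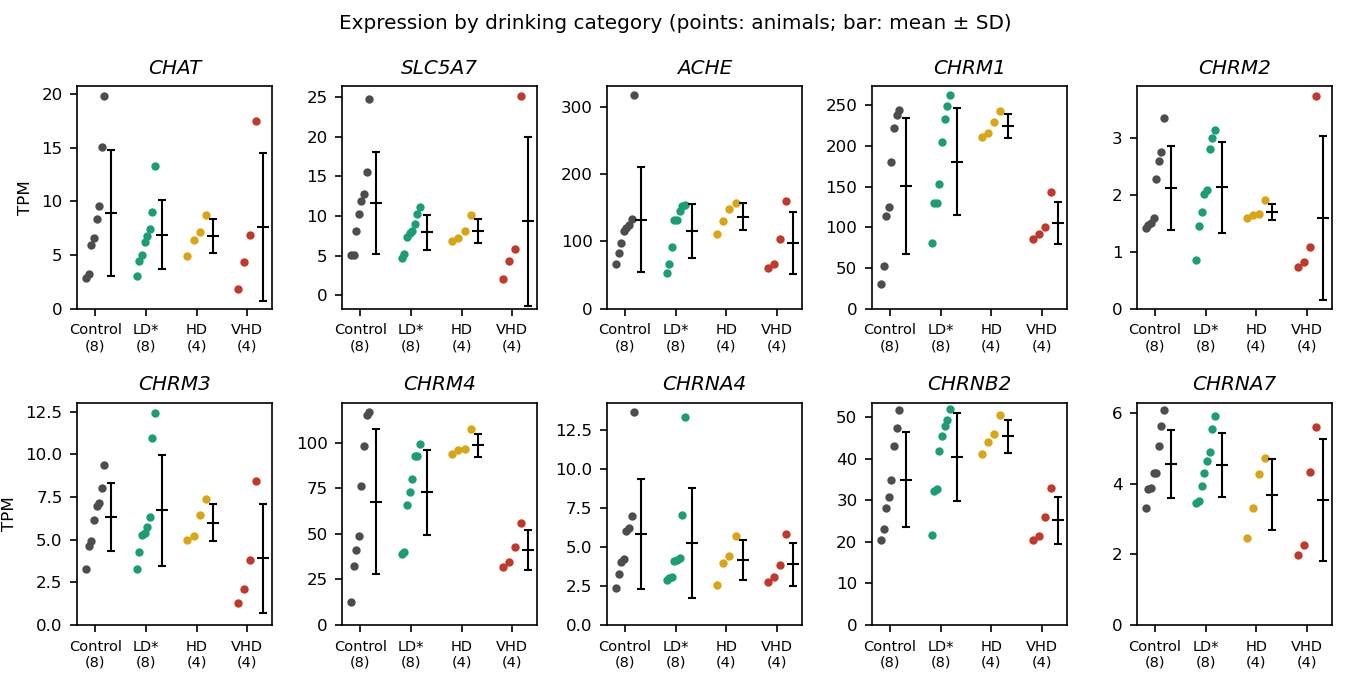
TPM (linear axis) of each gene in controls, LD*, HD and VHD animals, with a point per animal and a bar at the mean ± SD beside it, numbers of animals in brackets. The HD animals lie above all VHD animals for CHRM1, CHRM4 and CHRNB2 (CHRM4 93.9 to 108 against 31.6 to 56.1 TPM), and the controls range widely, from 12.5 to 117 TPM for CHRM4.

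In all, 3 members had higher and 7 lower means in HD* animals than in controls, with a median of −0.26 on the log2 scale beside −0.12 over all genes, of which 77.8% were lower. Against LD* animals 9 of 10 members were lower in HD* animals, as were 73.3% of all genes. LD* animals had 4 members above and 6 below controls, and 58.1% of all genes were below. After TMM rescaling, which rests on a trimmed mean of the log ratios between animals, the median over all genes in HD* animals against controls was 0.00, and 4 members were higher and 6 lower.

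**Figure D3:**
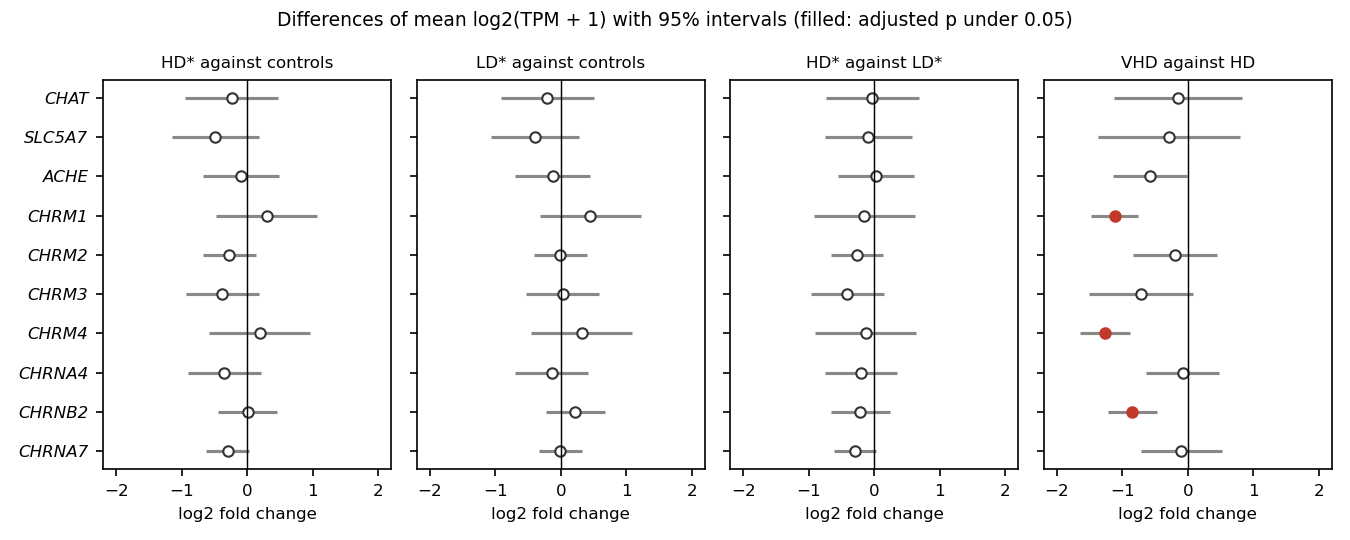
Differences of mean log2(TPM + 1) with 95% intervals for each gene in 4 comparisons, first group minus second, filled where the adjusted p was under 0.05. Intervals of all members cross 0 in the 3 comparisons of groups of 8, and CHRM1 (−1.12), CHRM4 (−1.27) and CHRNB2 (−0.85) are filled for VHD against HD animals.

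The 95% intervals of the HD* against control differences ran from −0.63 to 0.02 for CHRNA7, from −0.67 to 0.13 for CHRM2 and from −0.44 to 0.46 for CHRNB2. They were wider for CHRM1 (−0.47 to 1.07) and CHAT (−0.95 to 0.47).

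The HD* animals were then divided, since HD and VHD animals are separate drinking categories whose intakes meet at 3.09 g/kg. VHD animals had lower CHRM4, CHRM1 and CHRNB2 than HD animals. These 3 of 10 members were called (limma, adjusted p under 0.05, n = 4 each), beside 14.6% of all 13637 genes, 1997 genes of which 441 were higher and 1556, or 11.4% of all genes, lower in VHD animals. All VHD animals lay below all HD animals for the same 3 members, as they did for 17.9% of all genes.

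CHRM4 stood at 93.9, 96.2, 96.4 and 108 TPM in the 4 HD animals and at 31.6, 34.3, 43.0 and 56.1 TPM in the 4 VHD animals. The gap between the groups was wider than the spread within either. The log2 difference was −1.27 (SE 0.18, 95% interval −1.65 to −0.89, limma adjusted p = 0.00363, exact permutation p = 0.0286, the smallest that 4 against 4 animals allow).

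CHRM1 stood at 211, 216, 229 and 243 TPM in the HD animals and at 85.2, 91.2, 100 and 143 TPM in the VHD animals. The groups did not overlap, and HD animals differed little among themselves. The log2 difference was −1.12 (SE 0.16, 95% interval −1.47 to −0.77, limma adjusted p = 0.00418, exact permutation p = 0.0286).

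CHRNB2 stood at 41.0, 44.0, 46.0 and 50.5 TPM in the HD animals and at 20.4, 21.4, 26.0 and 32.8 TPM in the VHD animals. The difference was −0.85 on the log2 scale (SE 0.17, 95% interval −1.22 to −0.47, limma adjusted p = 0.0112, exact permutation p = 0.0286). Without HD* 6 it was −0.76 with an adjusted p of 0.0509, the only one of these 3 calls lost by leaving out an animal. Each cohort held 2 HD and 2 VHD animals. As the groups did not overlap for these 3 genes, the sign within a cohort could only be negative, so only the sizes are informative. CHRM4 differed by −0.94 in cohort 5 and −1.60 in cohort 7a, CHRM1 by −0.94 and −1.29, and CHRNB2 by −0.53 and −1.17.

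The VHD animals lay within or close to the range of all 8 controls. CHRM4 in controls ran from 12.5 to 117 TPM and CHRM1 from 30.3 to 245 TPM, which contain the values of all HD* animals, and CHRNB2 in controls ran from 20.5 to 51.8 TPM, with HD* 6 (20.4 TPM) just below. The lower ends of these ranges were set by Control 6 and Control 8, which had the lowest medium spiny neuron marker sums. The other 6 controls started at 114 TPM for CHRM1, with 3 of the 4 VHD animals below, at 41.0 TPM for CHRM4, with 2 VHD animals below, and at 28.1 TPM for CHRNB2, with 3 below. Summed medium spiny neuron markers were 9324 to 10917 TPM in HD animals and 3538 to 6292 TPM in VHD animals, again without overlap, and no marker of the list was at 0. Astrocyte markers moved the other way, 1769 to 3253 TPM in HD and 3917 to 6570 TPM in VHD animals, as did microglia markers, 273 to 359 and 360 to 630 TPM. Oligodendrocyte markers overlapped (2323 to 3951 and 2271 to 4813 TPM). General neuron markers were 2269 to 2883 TPM in HD and 1120 to 2390 TPM in VHD animals (means 2622 and 1636 TPM). Only HD* 4 among the VHD animals reached the HD range there.

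Set against 1000 TPM of medium spiny neuron markers in the same animal, the 2 groups overlapped for all 3 genes. CHRM4 was then 9.29 to 10.1 in HD and 5.51 to 12.1 in VHD animals. CHRM1 was 20.3 to 23.5 and 14.6 to 24.1, and CHRNB2 3.95 to 4.72 and 3.43 to 7.35. For CHRM4 the overlap rested on HD* 4, which had at least 5 TPM of NGFR. The other VHD animals still lay below every HD animal for CHRM4, but not for CHRM1 or CHRNB2. With TMM rescaling, where the calls over all genes were 1180 higher and 1416 lower in VHD animals, CHRM4 differed by −1.07, CHRM1 by −0.92 and CHRNB2 by −0.65 (limma adjusted p = 0.00828, 0.0172 and 0.0195).

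The other 7 members did not pass between VHD and HD animals. ACHE came closest, at 111 to 156 TPM in HD and 60.6 to 160 TPM in VHD animals (log2 difference −0.58, SE 0.26, unadjusted p = 0.0479, limma adjusted p = 0.149). CHAT was 4.86 to 8.69 TPM in HD and 1.81 to 17.5 TPM in VHD animals, and SLC5A7 6.89 to 10.2 and 2.07 to 25.0 TPM. In both genes, as in CHRM2 and CHRM3, HD* 4 was the highest and HD* 8 the lowest VHD animal, so VHD animals lay on both sides of the HD animals.

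HD* 4 decided several of these values. Without it, 7 members were called and 4651 of all genes, where ACHE (−0.85, limma adjusted p = 0.00792), CHRM3 (−1.10, limma adjusted p = 0.00866), SLC5A7 (−0.90, limma adjusted p = 0.0221) and CHRM2 (−0.53, limma adjusted p = 0.0313) joined the first 3, leaving 3 VHD animals. All 10 members were lower on average in VHD animals, as were 65.2% of all genes. With TMM rescaling CHRNA4 and CHRNA7 were higher, and 8 of 10 were lower.

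Within the 16 drinkers, daily intake was also used as a number with the drinking group kept in the model. The estimates were negative for 9 of 10 members, as for 67.5% of all genes, and 0 of 10 passed (limma), beside 0.0% of all genes with the adjusted and 8.12% with the unadjusted threshold. The steepest was CHRM3, at −0.64 on the log2 scale per g/kg (SE 0.33, unadjusted p = 0.0706, limma adjusted p = 0.498). CHRNB2 was −0.49 (SE 0.24, unadjusted p = 0.0542) and ACHE −0.58 (SE 0.29, unadjusted p = 0.0573), with the same adjusted p of 0.498. CHAT alone had a positive estimate, 0.12 (SE 0.38, limma adjusted p = 0.888).

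Cohort was examined because it was unevenly filled by the groups. In a test of any difference among the 4 cohorts, 0 of 10 members passed (limma), beside 0.0% of all genes with the adjusted and 8.36% with the unadjusted threshold. CHRM3 had the smallest unadjusted p, 0.0981 (adjusted p = 0.540). HD* animals and controls met only in cohorts 5 and 7a. There, CHAT averaged 9.45 TPM in HD* animals and 5.80 TPM in controls of cohort 5, and 4.93 and 10.8 TPM in cohort 7a. The HD* effect thus went opposite ways, 0.58 (exact permutation p = 0.400) and −1.02 (exact permutation p = 0.267) on the log2 scale, with HD* 4 in cohort 5 and Control 8 in cohort 7a among the averages. The interaction was −1.60 for CHAT (SE 0.68, unadjusted p = 0.0343, limma adjusted p = 1.00) and −1.27 for SLC5A7 (SE 0.73, unadjusted p = 0.106, limma adjusted p = 1.00). The interaction was negative for 7 of 10 members and for 58.8% of all genes. Of all genes, 0.0% passed for it and 2.16% had an unadjusted p under 0.05.

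Across cohorts and contrasts no member reached an exact permutation p under 0.143 within a single cohort, where 4 animals against 3 allow 0.0286, 4 against 2 allow 0.0667 and the smaller sets 0.1. With cohort as a covariate, the differences between HD* animals and controls turned negative for CHRM4 (−0.11) and CHRNB2 (−0.13).

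Although group and intake separated few values, the genes followed each other across animals. Over 45 pairs of members in 24 animals, 16 had a Benjamini-Hochberg adjusted p under 0.05 for Pearson's r of log2(TPM + 1) (100000 permutations), 15 positive and 1 negative. All these values come from the same libraries and share the total of each animal.

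CHAT and SLC5A7 followed each other closely, with r = 0.93 and Spearman's rho = 0.91 (permutation p = 1e-05 for both, the smallest 100000 permutations can give, adjusted 0.000112). Without the 2 animals farthest from the median of CHAT, HD* 8 and Control 6, r was 0.88, and within the controls, LD* and HD* animals it was 0.97, 0.88 and 0.96. ACHE followed them less tightly, with r = 0.69 with CHAT (rho = 0.58, permutation p = 0.00014, adjusted 0.0009) and r = 0.74 with SLC5A7 (rho = 0.62, permutation p = 4e-05, adjusted 0.00036), falling to 0.53 and 0.73 without the 2 farthest animals.

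The receptor genes CHRM1, CHRM4 and CHRNB2 formed another group. CHRM1 and CHRM4 had r = 0.95 (rho = 0.91), CHRM1 and CHRNB2 r = 0.89 (rho = 0.95) and CHRM4 and CHRNB2 r = 0.88 (rho = 0.90), each with a permutation p of 1e-05 (adjusted 0.000112). Without the 2 farthest animals these were 0.93, 0.95 and 0.92. CHAT had r = −0.27 with CHRM1 and −0.12 with CHRM4, so CHAT and these receptors did not move as one. ACHE had r = 0.45 with CHRNB2 (rho = 0.57), 0.13 with CHRM4 and 0.08 with CHRM1. Without Control 6 these were 0.75, 0.70 and 0.61, beside 0.61 with CHAT and 0.67 with SLC5A7. The place of ACHE beside CHAT and SLC5A7 rather than these receptors thus rested on Control 6.

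CHRM2, the autoreceptor gene, had r near 0 with CHRM1 (−0.02) and CHRM4 (−0.02), but r = 0.67 with SLC5A7, 0.64 with ACHE, 0.71 with CHRM3 and 0.65 with CHRNA4 (permutation p = 0.00028, 0.00086, 0.00012 and 0.00046, adjusted 0.00157, 0.00387, 0.0009 and 0.0023, rho 0.57, 0.68, 0.64 and 0.67). Without the 2 farthest animals the positive values were 0.50 with SLC5A7, 0.51 with ACHE, 0.78 with CHRM3 and 0.60 with CHRNA4. For SLC5A7 these animals were HD* 8 and HD* 4. Within controls, LD* and HD* animals r of CHRM2 with SLC5A7 was 0.64, 0.15 and 0.93. With CHAT, r of CHRM2 was 0.52 (rho = 0.48, permutation p = 0.00862, adjusted 0.0277), and 0.33 without the 2 farthest animals. Within the same groups it was 0.65, −0.10 and 0.85. The nicotinic partners CHRNA4 and CHRNB2 did not move together (r = −0.18). The 1 negative pair, CHRM4 and CHRNA4 (r = −0.50, rho = −0.28, permutation p = 0.0143, adjusted 0.0429), rested on Control 6, without which r was −0.26.

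**Figure D4:**
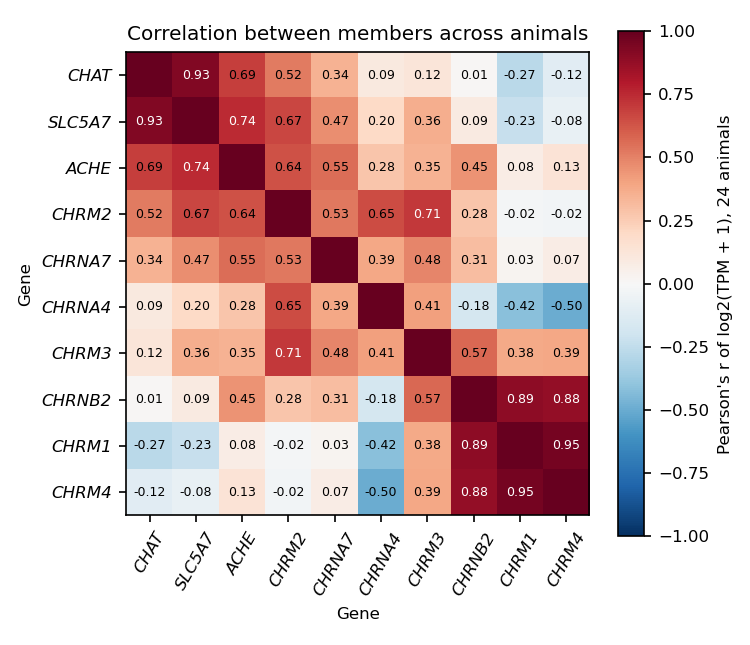
Pearson's r of log2(TPM + 1) between each pair of genes over 24 animals, red for positive and blue for negative values. The block of CHAT, SLC5A7 and ACHE (0.69 to 0.93) and the block of CHRNB2, CHRM1 and CHRM4 (0.88 to 0.95) stand out. Between them the values are near 0 or below for CHAT (0.01, −0.27 and −0.12) and 0.45, 0.08 and 0.13 for ACHE. Without Control 6 those of ACHE are 0.75, 0.61 and 0.70.

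The genes of most similar pattern, taken from all 13637 genes by r over the 24 animals and given as a description, followed these blocks. For CHAT they included LHX8, a homeobox gene of cholinergic neurons (r = 0.93), and SLC17A8, the vesicular glutamate transporter that striatal cholinergic interneurons carry (r = 0.93). For SLC5A7 they were CHAT (r = 0.93), SLC17A8 (r = 0.93) and LHX8 (r = 0.92). For ACHE they were DHRS13 (r = 0.93), TUBB3, a neuronal tubulin (r = 0.91), and CACNA2D2, a calcium channel subunit (r = 0.91).

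For CHRM1 the nearest genes were PCDHGC5, KCNA4 and WASF1 (r = 0.98 each), and for CHRM4 TMOD1, SMPD3 and ASPHD2 (r = 0.97 or 0.98). For CHRNB2 they included SLC12A5, the neuronal chloride exporter KCC2, and DLG3, a synaptic scaffold (r = 0.98 each). CHRM2 was closest to HDAC8 (r = 0.91), TTPAL and MAGI1 (r = 0.88 each), CHRM3 to SNX16 (r = 0.95), TRIM9 (r = 0.94) and TRIM2 (r = 0.93), and CHRNA4 to KCNS3 (r = 0.91), RTP1 (r = 0.90) and IGSF21 (r = 0.90). CHRNA7 had no close partner. Its nearest genes were C18orf8 (r = 0.80), MRPL9 (r = 0.79) and NDNL2 (r = 0.78).

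The levels also followed sums of cell markers over the 24 animals, again as a description. CHRM1 had r = 0.94 and CHRM4 r = 0.92 with the sum of the 11 medium spiny neuron markers, and CHRM3 had r = 0.93 with the sum of 5 general neuron markers. CHRNB2 had r = 0.72 with the medium spiny neuron sum and r = 0.69 with the general neuron sum. CHRM1 was negatively related to astrocyte markers (r = −0.84).

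**Figure D5:**
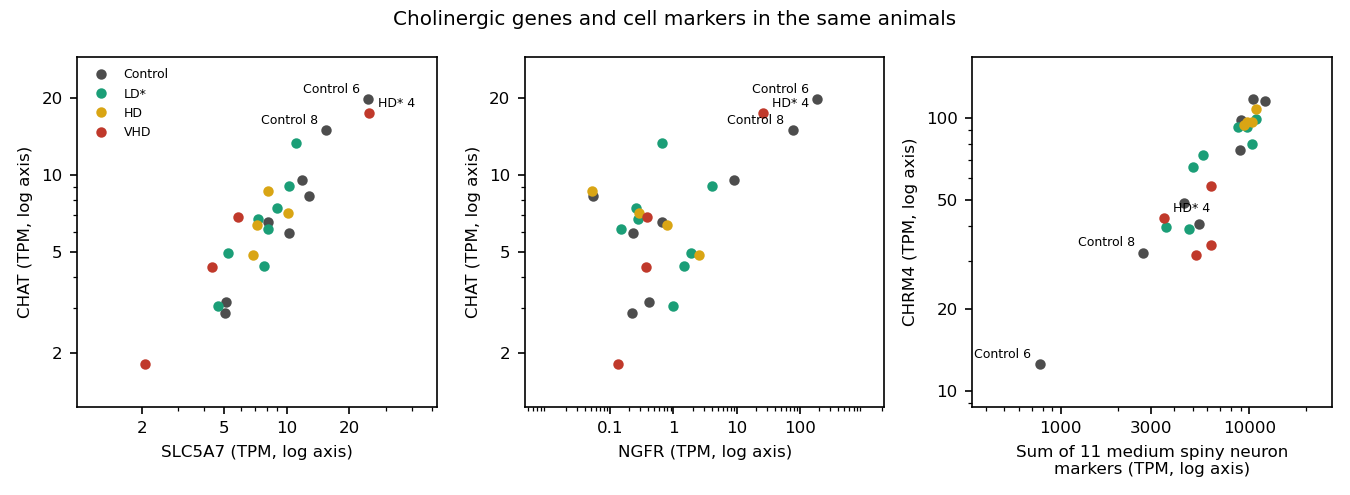
Each point is an animal, coloured by drinking category, on log axes in TPM, with CHAT against SLC5A7, CHAT against NGFR and CHRM4 against the sum of 11 medium spiny neuron markers. Control 6 is highest in CHAT (19.8 TPM) and NGFR (185 TPM) and lowest in CHRM4 (12.5 TPM) and in the marker sum (774 TPM).

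The 4 animals with at least 5 TPM of NGFR had more of the presynaptic genes than most others. CHAT was 9.59 to 19.8 TPM in them (median 16.3) and 1.81 to 13.3 TPM in the other 20 animals (median 6.27), and SLC5A7 was 11.9 to 25.0 TPM (median 20.1) and 2.07 to 12.8 TPM (median 7.56). They had less CHRM1, 30.3 to 125 TPM (median 68.6) against 80.5 to 262 TPM (median 208), and less CHRM4, 12.5 to 48.6 TPM (median 37.5) against 31.6 to 117 TPM (median 86.3). Their medium spiny neuron markers summed to 774 to 4521 TPM, against 3632 to 12060 TPM. These animals were set apart after the values were seen, so this is a description with no test, and the part of these markers in any result was not tested.

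Ratios of paired members were also taken within each animal. The log2 ratio of CHAT to SLC5A7 had a mean of −0.48 in controls, of −0.27 in LD* and of −0.20 in HD* animals. Its HD* against control difference of 0.28 had the smallest p of 9 such tests (exact permutation p = 0.0665, adjusted 0.599). The log2 ratio of CHRM4 to CHRM1 averaged −1.16, −1.29 and −1.27, and that of CHRNA4 to CHRNB2 −2.67, −3.06 and −3.08 in the same order. The adjusted p of the other 8 tests was 0.656 or above, and in every one the groups overlapped.

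The rest of the pathway was counted as a list of 34 other genes of acetylcholine handling, receptors and their G proteins, of which 33 were in the table and 22 reached a mean of 1 TPM. Levels were led by LY6H, a lynx-family modulator of nicotinic receptors, at 677 TPM, and by the G protein genes GNAO1 at 307 TPM and GNAI2 at 208 TPM. SLC18A3, the vesicular acetylcholine transporter, averaged 10.8 TPM and CHRM5, the muscarinic receptor of dopamine neurons, 1.94 TPM. Of the 11 genes under 1 TPM, 10 encode other nicotinic subunits.

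None of these 22 genes passed in the 3 comparisons of groups of 8 (limma). In HD* animals against controls 1 was higher and 21 were lower, beside 77.8% of all genes lower, and the split was 7 higher and 15 lower with TMM rescaling and 6 and 16 with array weights. An unadjusted p under 0.05 was reached by 2 of the 22, beside 5.68% of all genes. BCHE, the second cholinesterase, ranged from 5.08 to 16.01 TPM in controls (median 7.76), from 3.65 to 7.79 TPM in LD* animals (median 5.35) and from 2.70 to 7.49 TPM in HD* animals (median 4.82). It differed from controls by −0.67 in HD* (SE 0.20, unadjusted p = 0.00201, limma adjusted p = 0.706) and by −0.50 in LD* animals (SE 0.20, unadjusted p = 0.0176, limma adjusted p = 1.00). GNAI3, a G protein subunit, differed by −0.32 in HD* and −0.31 in LD* animals (unadjusted p = 0.0267 and 0.0316, limma adjusted p = 0.706 and 1.00).

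In LD* animals against controls CHKA (−0.28), LYPD1 (−0.66) and SLC44A2 (−0.32) also had unadjusted p under 0.05. This made 5 of the 22 genes, all lower, beside 2.84% of all genes. Without the 4 animals with at least 5 TPM of NGFR it was 1 of the 22, beside 419 of all 13637 genes. Control 6 was the highest of all animals for BCHE, CHKA, LYPD1 and SLC44A2. In HD* against LD* animals CHKA, a choline kinase, was the only 1 of the 22, beside 1.08% of all genes. Its difference there was 0.24 (limma adjusted p = 0.937). In the cohort test GNAQ and SLC44A1 had unadjusted p of 0.0448 and 0.0390 (adjusted p = 0.540 for both). SLC18A3, which lies within the CHAT locus, so that reads of the 2 genes may not be fully told apart, had an interaction with cohort of −1.76 (SE 0.71, unadjusted p = 0.0281, limma adjusted p = 1.00), close to that of CHAT, and SLC44A1 one of −0.80 (unadjusted p = 0.0499, limma adjusted p = 1.00).

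Between VHD and HD animals 2 of the 22 passed, both lower in VHD animals, beside 14.6% of all genes called and 11.4% called and lower. RGS4, which speeds the shut-off of Gq and Gi signals in neurons, was 110 to 205 TPM in HD and 25.6 to 55.3 TPM in VHD animals (log2 difference −1.70, SE 0.25, limma adjusted p = 0.00435). GNAO1, the main Go subunit of neurons, was 356 to 405 TPM and 172 to 252 TPM (−0.89, SE 0.14, limma adjusted p = 0.00489). Every VHD animal lay below every HD animal in both genes, as for 17.9% of all genes. GNAI1 had an unadjusted p of 0.0455 (−0.64, limma adjusted p = 0.144). Of the 22 genes, 14 were lower and 8 higher in VHD animals, beside 65.2% of all genes lower, and with TMM rescaling 9 were lower and 13 higher.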

How the data were processed

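RNA of the NAcc core from 24 animals was measured once each. Per the study's methods and the labels, the authors aligned polyA-selected reads to the MacaM assembly with STAR 2.5.2b, kept uniquely aligned reads and counted them on genes with HTSeq 0.6.1p1. The values deposited by the authors are named as normalized counts, and were read as TPM because they add up to between 999998 and 1000000 per animal and because, of the 1000 lowest values above 0 in an animal, 915 to 949 were distinct. Counts scaled to a total without gene length would repeat a value for all genes with the same number of reads. The study gives the average number of reads per sample, but the reads of each animal and gene behind these values are unknown. No counting error is therefore given and no count model was run. The gene lengths used are not given in the sources used here. Whether reads were stranded is described in different ways, so reads of overlapping genes may not have been told apart. In RefSeq T2T-MMU8v2.0, another build, MDK overlaps CHRM4 and ADAR overlaps CHRNB2.

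Values were taken as log2(TPM + 1). Tests used limma 3.58.1 (R 4.3.3) and the 13637 genes whose mean reached 1 TPM (empirical Bayes with a trend, Benjamini-Hochberg adjustment over all genes). One model of 3 groups gave the group comparisons, and others gave VHD against HD animals, intake with a group term, cohort, and the HD* effect in cohort 5 against 7a. Ratios used 0.1 TPM added to both genes. Two-sided exact permutations and 100000-permutation correlation tests were run in Python 3.11.15 with numpy 2.4.6 and scipy 1.17.1. The limma tests of the 3 group comparisons, VHD against HD animals and intake were also run on simulated data, in which genes were drawn independently. All 10 members are named. Of the other pathway genes, those with an unadjusted p under 0.05, the 3 most abundant, SLC18A3 and CHRM5 are named. For each member the 3 genes with the highest r over the animals are named, except that a few genes, and a marker sum that includes one of them, are not reported here. The members and lists were chosen with earlier results of these data known. Alternatives were pseudocounts of 0.1 and 8, no filter and a filter of 10 TPM, TMM rescaling (trimming 30% of M and 5% of A), array weights, covariates, subsets of cohorts or groups, no group term for intake, no value added to ratios, and each animal left out. After the data were seen, animals with at least 5 TPM of NGFR or 100 TPM of SLC17A7 were left out.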

Additional observations from a re-analysis of the deposited data

Results flagged for a closer look

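Dixon's test at 95% was run on 75 sets of 4 to 8 animals, among them those of the members and SLC18A3. Chance meets it in about 1 in 20 separate sets of normally distributed values. The HD and VHD sets lay within the HD* sets, so these sets were not separate. In 9 sets an animal lay far from the others for the range of the set, each time as the highest in TPM. Of these, 5 were HD* 4, a VHD animal. Its CHAT of 17.5 TPM stood above the other HD* animals (1.81 to 8.69 TPM). Its SLC5A7 of 25.0 TPM stood above the other HD* animals (2.07 to 10.2 TPM) and, separately, above the other VHD animals (2.07 to 5.82 TPM). Its CHRM2 of 3.74 TPM stood above the other HD* animals (0.731 to 1.92 TPM) and the other VHD animals (0.731 to 1.09 TPM). A further 3 were Control 6, with ACHE at 317 TPM beside 66.0 to 133 TPM in the other controls, CHRNA4 at 13.7 TPM beside 2.36 to 6.98 TPM, and SLC18A3 at 57.2 TPM beside 3.51 to 28.5 TPM. The last was LD* 4, with CHRNA4 at 13.3 TPM beside 2.88 to 7.09 TPM. NGFR was 185 TPM in Control 6 and 26.5 TPM in HD* 4, and SLC17A7 was 722 TPM in LD* 4. The part of these markers in the values was not tested.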

How the results depend on the processing

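In the 3 comparisons of groups of 8, the intake slope, the cohort test and the interaction with cohort, no member passed an adjusted p of 0.05 under any alternative run (limma). For VHD against HD animals, CHRM4 and CHRM1 passed under every alternative run, and CHRNB2 under all but leaving out HD* 6 (adjusted p = 0.0509, from a fit that leaves 3 VHD animals). Genes called there were 1997, and 7613 with array weights (6 members), 4651 without HD* 4, the HD* animal with at least 5 TPM of NGFR (7 members), and 723 without HD* 7, the one of these with at least 100 TPM of SLC17A7. With each of the 8 animals left out in turn they ran from 476 (without HD* 6) to 4651, and members from 2 to 7. Leaving out HD* 2, 3 or 5 gave 1094, 681 and 607 genes. No paired analysis was possible because the labels give the animals no shared replicate numbers. The number of reads behind the TPM is unknown, so precision rests on the number of animals.

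The values of changed sign below are log2 differences (per g/kg for the slope), none of which passed, and the cause was not tested. With array weights, CHAT was 0.15 and ACHE 0.24 in HD* animals against controls, CHAT 0.27, ACHE 0.26, CHRM2 0.10, CHRM3 −0.12 and CHRNA7 0.046 in LD* animals against controls, and ACHE −0.020 and CHRM4 0.064 in HD* against LD* animals. Without animals of at least 5 TPM of NGFR, CHAT was 0.070, ACHE 0.055, CHRM1 −0.22, CHRM4 −0.33 and CHRNB2 −0.20 in HD* animals against controls, CHAT 0.29, ACHE 0.10, CHRM1 −0.19, CHRM2 0.11, CHRM3 −0.18, CHRM4 −0.28, CHRNA4 0.093 and CHRNB2 −0.037 in LD* animals against controls, and ACHE −0.047 in HD* against LD* animals. Without animals of at least 100 TPM of SLC17A7, CHRNB2 was −0.036 (HD* against controls), CHRM3 −0.12 (LD* against controls), ACHE −0.15 and CHRNA4 0.00073 (HD* against LD*), CHRNA4 0.061 (VHD against HD) and CHAT −0.22 (slope). With TMM rescaling, ACHE was 0.036 (HD* against controls), CHRM2 0.018 and CHRNA7 0.032 (LD* against controls), CHAT 0.030 (HD* against LD*), and CHRNA4 0.085 and CHRNA7 0.045 (VHD against HD). In cohorts 5 and 7a alone, ACHE was 0.086, CHRM4 −0.16 and CHRNB2 −0.10 in HD* animals against controls. With cohort as a covariate, CHRM4 was −0.11 and CHRNB2 −0.13 (HD* against controls) and CHRNA4 0.21 (HD* against LD*). With an oligodendrocyte score as a covariate, CHRM4 was −0.019 and CHRNB2 −0.091 (HD* against controls), and CHRM2 0.055, CHRNA4 0.075 and CHRNA7 0.00023 (LD* against controls). With a pseudocount of 8, CHRM2 was 0.0011 (LD* against controls) and CHAT 0.0053 (HD* against LD*). Without the animals of cohort 4, CHRM3 was −0.066 (LD* against controls), and the slopes of CHAT and CHRNA7 were −0.17 and 0.056.

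Leaving out each animal in turn changed the sign of some values. In HD* animals against controls the ranges were −0.22 to 0.11 for ACHE, −0.10 to 0.34 for CHRM4 and −0.088 to 0.11 for CHRNB2. In LD* animals against controls they were −0.24 to 0.077 for ACHE, −0.069 to 0.096 for CHRM2, −0.10 to 0.14 for CHRM3, −0.33 to 0.037 for CHRNA4 and −0.055 to 0.047 for CHRNA7. In HD* against LD* animals they were −0.12 to 0.15 for ACHE, −0.22 to 0.16 for CHAT, −0.24 to 0.0090 for CHRM4, −0.33 to 0.11 for SLC5A7, −0.040 to 0.084 for the log2 ratio of CHRM4 to CHRM1 and −0.15 to 0.24 for that of CHRNA4 to CHRNB2. In VHD against HD animals they were −0.63 to 0.27 for CHAT, −0.25 to 0.061 for CHRNA4, −0.30 to 0.078 for CHRNA7 and −0.90 to 0.13 for SLC5A7.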
